A study of Homo sapiens with 4 samples.

Results

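The genes described here encode the receptors and transporters of glutamate, the main excitatory transmitter of the brain: 32 genes out of 20163 protein-coding genes, in 7 classes. They comprise 4 AMPA, 5 kainate, 7 NMDA, 1 delta and 7 metabotropic receptor genes, 3 vesicular transporter genes and 5 plasma membrane transporter genes. NRSF/REST sites were assigned to a gene when any base lay in the gene or within 10 kb of its boundaries in GENCODE release 44 on hg19. By this rule 51 of the 5323 sites of the basal list and 46 of the 5059 sites of the increased-dosage list belonged to the listed genes, and each of these sites belonged to 1 listed gene.

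The sites came from ChIP-seq with an anti NRSF/REST antibody (Millipore) in H295R/TR SF-1 cells, a derivative of the human adrenocortical carcinoma line H295R in which doxycycline switches on additional Steroidogenic Factor-1 (SF-1), a nuclear receptor. All cells carried the inducible construct. The basal library was made without doxycycline and the increased-dosage library after 3 days with it, and 2 libraries of input DNA were not analysed here. With 1 library per dosage no value has a replicate check, a difference between dosages could not be tested, and read counts, depth and gene expression are not part of the site lists. The score of every site is 1000, so that a site is described by its width and by its place in the list, where 1 stands for the first entry. Early places went with wide sites in these lists (Spearman rho of place and width over all sites -0.947 basal and -0.951 increased, given as a description).

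NRSF/REST is a zinc finger repressor that binds a bipartite element, RE1, and keeps neuronal genes silent outside the nervous system through corepressors that remove acetyl groups from histones and methylate them. Fast excitatory transmission rests on the ionotropic AMPA, kainate and NMDA receptors, which are glutamate-gated cation channels assembled from several subunits. Metabotropic receptors act through G proteins, vesicular transporters load glutamate into synaptic vesicles, and plasma membrane transporters clear it from the extracellular space. H295R cells are of adrenocortical and not of neuronal origin.

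A site was called shared when it overlapped a site of the other list by at least 1 bp, and overlapping sites of both lists were merged into loci. The listed genes held 57 loci, of which 34 were present at both dosages, 14 in the basal list only and 9 in the increased list only. The NRSF/REST consensus was searched on both strands as CTGTCC, then 2 free bases, then GGTGCTG, with at most 2 mismatches over these 13 fixed bases. It was found in 23 of the 34 shared loci, and those sequences are shown because they locate the element at each gene. Each runs 21 bases 5′ to 3′ in the direction of the consensus, with hg19 coordinates; capitals mark fixed bases that match, and small letters mark free bases, flanks and mismatches. The first lines are the 11 matches without mismatch.
GRIK3, chr1:37432057-37432077, - strand: ggagCTGTCCctGGTGCTGac
SLC1A6, chr19:15126963-15126983, + strand: aacgCTGTCCgtGGTGCTGaa
SLC1A6, chr19:15125563-15125583, + strand: aacgCTGTCCgtGGTGCTGaa
GRIN1, chr9:140033712-140033732, - strand: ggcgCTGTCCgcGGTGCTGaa
GRIA2, chr4:158141540-158141560, + strand: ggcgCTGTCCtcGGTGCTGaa
GRM8, chr7:126747972-126747992, + strand: ggagCTGTCCatGGTGCTGac
GRIA4, chr11:105544012-105544032, + strand: agcgCTGTCCtcGGTGCTGaa
GRIK4, chr11:120523855-120523875, + strand: ggcaCTGTCCaaGGTGCTGaa
SLC17A6, chr11:22359296-22359316, + strand: tactCTGTCCgtGGTGCTGaa
GRM5, chr11:88437866-88437886, + strand: agtgCTGTCCttGGTGCTGag
GRIN3A, chr9:104437804-104437824, + strand: ggcaCTGTCCtaGGTGCTGgg

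The other 11 best matches with 1 mismatch and the 1 with 2 mismatches follow, with the substitution named as the consensus base, its position (the leading C of the consensus is position 1), and the base of the site.
GRIN2A, G12T, chr16:9930169-9930189, + strand: tacgCTGTCCatGGTtCTGaa
GRM4, T4A, chr6:34100494-34100514, - strand: ggcgCTGaCCgaGGTGCTGaa
GRIK3, G3C, chr1:37486461-37486481, + strand: gctgCTcTCCgtGGTGCTGaa
GRIK3, G3C, chr1:37390001-37390021, + strand: ggagCTcTCCaaGGTGCTGat
GRIN1, T4G, chr9:140041154-140041174, - strand: ggagCTGgCCcaGGTGCTGag
GRM4, G12C, chr6:34083304-34083324, - strand: gctgCTGTCCaaGGTcCTGaa
GRID1, G12A, chr10:88066609-88066629, + strand: ggcgCTGTCCgaGGTaCTGat
GRID1, G15A, chr10:87963443-87963463, - strand: ggcgCTGTCCagGGTGCTagc
GRIK2, G12C, chr6:101844617-101844637, + strand: agcgCTGTCCgtGGTcCTGaa
GRM5, G9A, chr11:88795181-88795201, + strand: agatCTGTCCagaGTGCTGac
GRIN2A, C13T, chr16:10277271-10277291, + strand: gctgCTGTCCgtGGTGtTGga
GRIN3A, C5A and T14A, chr9:104498984-104499004, + strand: gcttCTGTaCtaGGTGCaGat

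Among these best matches, G12C occurred in 2 (GRIK2 and GRM4) and G3C in 2, both in GRIK3, while every other substitution occurred in 1. The element pointed along the gene in 9 of the 23 loci and against it in the others. The best match lay in an intron of the canonical transcript at 17 loci, 7 of them first introns, in the 5′ UTR of an exon at 1 locus (GRIN1) and outside the canonical transcript at 5, and at none in coding sequence. Within the sites, the best match sat a median of 51 bp from the midpoint in the basal list and 76 bp in the increased list, which is 11.6% and 16.9% of the distance from midpoint to edge. The farthest was the match printed for GRIN3A with 2 mismatches, 480 and 705 bp from the midpoints and close to the edge. That locus held other matches of 2 mismatches, and the one at the lowest coordinate was taken. The others lay 249 and 62 bp from the midpoint of their basal site, and 474 and 687 bp from that of the increased site. The last of them was in the 5′ UTR of exon 1. The counts by substitution and by place above depend on this choice.

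A site of the basal list was present at 22 of the 32 genes, 68.8% (95% Wilson interval 51.4 to 82.0), against 13.9% of all protein-coding genes. In the increased list 19 genes had a site, 59.4% (42.3 to 74.5), against 13.6% of all protein-coding genes. At least 1 shared basal site was present at 17 genes, 53.1% (36.4 to 69.1), against 9.94%, and a shared basal site with the consensus at 14 genes, 43.8% (28.2 to 60.7), against 6.55%. Sites of 1 list only were left at 5 genes, 15.6% (6.86 to 31.8), where the share of all protein-coding genes was 7.06%. These intervals cover counting error over genes or sites and not the spread between libraries. The plot of site widths by gene shows all loci.

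**Figure D1:**
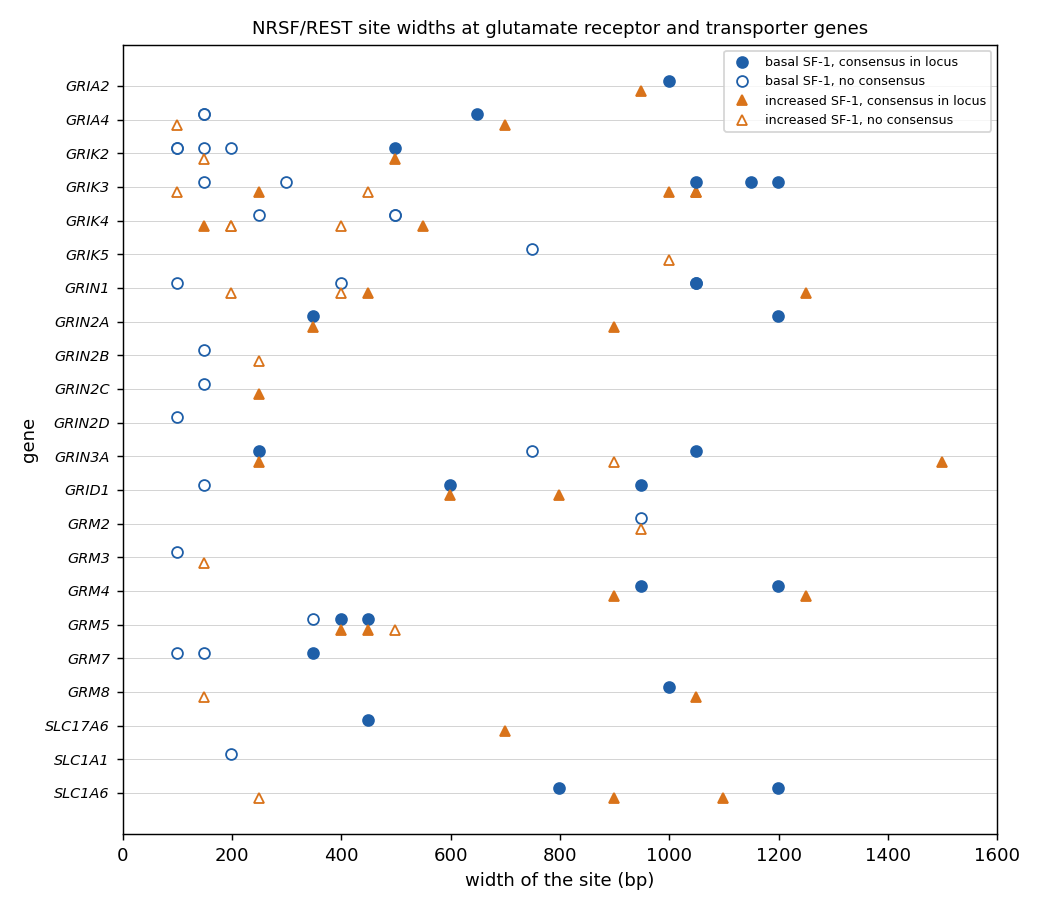
Width in bp of the NRSF/REST sites at the 22 genes with a site, with circles for the basal list, triangles for the increased list, and filled symbols where the locus holds the consensus with at most 2 mismatches; where a locus has several sites in a list the widest is drawn. The sites found in 1 list only do not exceed 349 bp, and the widest site has 1499 bp (GRIN3A, increased list).

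The AMPA receptors, which carry most fast excitatory current, had shared loci at GRIA2 and GRIA4, and no site of either list was assigned to GRIA1 or GRIA3. GRIA2 encodes the subunit whose RNA editing makes the channel nearly impermeable to calcium. Its single locus, 0.355 kb before the canonical start, was 999 bp wide at place 63 of the basal list and 949 bp wide at place 72 of the increased list. That was the earliest place of all listed genes in the basal list. GRIA4 had its shared locus in intron 3, 63.3 kb from the start, with sites of 649 and 699 bp at places 458 and 399 (basal and increased, in this order here and in what follows, for the widest site where a locus holds several). The remaining GRIA4 sites, 2 basal and 1 increased, were 99 to 149 bp wide and lacked the consensus.

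Kainate receptor genes held the largest number of sites of any class, 15 in each list over 4 of 5 genes. GRIK1 had none. GRIK3, a low-affinity subunit, had 5 shared loci within 239 kb, more than any other listed gene. The 3 with the consensus all lay in its first intron and were wide in both lists, with widths of 1149 and 1049 bp at 13.5 kb from the start, 1199 and 1049 bp at 68.2 kb, and 1049 and 999 bp at 110 kb. Their places were 406 and 386, 442 and 352, and 235 and 196. The other shared loci of GRIK3, in introns 5 and 15, had no consensus and were narrower, with 299 and 449 bp at place 2452 and 1997, and 149 and 99 bp at place 3139 and 3394. A further site of the increased list, 249 bp wide in the first intron, held a match with 2 mismatches.

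GRIK2, which spans 1119 kb, had its consensus locus in the first intron, 3.04 kb from the start, 499 bp wide in both lists at places 483 and 511. An adjacent shared locus at 3.44 kb was 99 and 149 bp wide and had no consensus. Its other 3 sites were basal only, 99 to 199 bp wide, and 2 of them lay upstream of the canonical start but inside the annotated gene. GRIK4, a high-affinity subunit that needs a partner subunit to form a channel, had 3 shared loci. The 1 with the consensus was in the first intron, 141 kb from the start, with 499 and 549 bp at places 1749 and 1662, and those in introns 8 and 12 had none and were 199 to 499 bp wide. Intron 3 held 2 sites of the increased list only, of 199 and 149 bp, the narrower with a match of 2 mismatches. At GRIK5, the other high-affinity subunit, the shared locus lay beyond the 3′ end of the gene, so that its assignment to GRIK5 rests on the 10 kb window. Its widest sites had 749 and 999 bp at places 475 and 452, without a consensus match.

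NMDA receptors are coincidence detectors that need glutamate and a co-agonist. GRIN1 encodes the obligatory subunit, and its locus over exon 1 was the earliest of the listed genes in the increased list, at place 57 with 1249 bp, and stood at place 66 with 1049 bp in the basal list. The consensus match there lies 0.115 kb after the start, in the 5′ UTR. A locus in intron 1 at 1.07 kb had 399 bp in both lists and no consensus, and a locus at intron 3, 7.24 kb from the start, had sites of 1049 and 449 bp at places 1886 and 1862 with a 1-mismatch match. The locus at intron 3 was split into 2 sites in the increased list, and the locus over exon 1 into 2 in the basal list. In this way GRIN1, a gene of 30.4 kb, had 4 shared basal sites in 3 loci, and 1 further narrow site in each list.

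GRIN2A had a locus 0.990 kb before its start, 349 bp wide in both lists at places 2385 and 2269, and a wider one in intron 7, 346 kb from the start, with 1199 and 899 bp at places 730 and 726. Both had a match with 1 mismatch. GRIN2B, the partner that prevails early in brain development, had a single narrow shared locus in intron 3 without the consensus, 149 and 249 bp wide at places 4293 and 3049. GRIN2C and GRIN2D had sites of 1 list only. For GRIN2C these were a basal site of 149 bp in intron 1 and an increased-list site of 249 bp over coding exon 3 with a match of 1 mismatch, and for GRIN2D a basal site of 99 bp.

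GRIN3A, a subunit that lowers the calcium permeability of the receptor, had 3 shared loci. The widest site at any listed gene was here, over exon 1, with 1499 bp in the increased list at place 404. In the basal list the same locus was split into 2 sites, the widest of 1049 bp at place 349, and it held 3 matches of 2 mismatches each. The locus in intron 2, at 63.1 kb, combined a match without mismatch with narrow sites of 249 bp in both lists at places 2644 and 2675. In intron 4 a locus of 749 and 899 bp, at places 1015 and 881, had no consensus. GRIN3B had no site. GRID1, a delta receptor that takes part in synapse formation and is not opened by glutamate in the usual way, had loci in introns 2 and 3 with 949 and 799 bp (places 496 and 427) and 599 bp in both lists (places 588 and 562), each with a match of 1 mismatch, and 1 basal site of 149 bp.

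Metabotropic receptors had shared loci at 4 of 7 genes. GRM2, a presynaptic autoreceptor, had a locus over its start, 949 bp wide in both lists at places 768 and 711. It held no consensus at the usual spacing, but both parts without mismatch, 7 bases apart in place of 2, on the - strand at chr3:51740883-51740902.
GRM2: CTGTCCgcctcgtGGTGCTG
This sequence is shown, with capitals for the parts, because it is the only such arrangement without mismatch in sites of the listed genes that lack the consensus, and it was chosen after its values were seen. GRM4 had loci in intron 2 at 13.4 and 30.8 kb, with 1199 and 899 bp at places 354 and 306, and 949 and 1249 bp at places 740 and 664. The GRM4 locus at 13.4 kb was split into 2 sites in the increased list, which together covered 1198 bp. GRM5, a postsynaptic receptor coupled to calcium release, had 3 shared loci between 349 and 499 bp wide, at 3.08 and 3.95 kb in the first intron and at 361 kb in intron 3. The nearest one to the start lacked the consensus, and the one in intron 3 matched without mismatch at places 1492 and 1686.

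GRM8, which is presynaptic, had a locus in intron 2 at 145 kb with 999 and 1049 bp at places 165 and 169, and 1 narrow increased-list site. GRM3 and GRM7 had unshared sites only. GRM7, despite a length of 972 kb, had 3 basal sites of 99 to 349 bp, of which the widest held a match with 1 mismatch, and no increased-list site. GRM3 had 1 narrow site in each list, and GRM6, the receptor of retinal bipolar cells, had none.

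Among the vesicular transporters, SLC17A6 (VGLUT2) had a locus 0.527 kb before its start with 449 and 699 bp at places 1554 and 1701 and a match without mismatch. SLC17A7 and SLC17A8, the other members, had no site. Of the plasma membrane transporters, SLC1A2 and SLC1A3, the main glial carriers, and SLC1A7 had none. SLC1A1 had a basal site of 199 bp in a stretch that also belongs to SPATA6L. SLC1A6, a carrier of cerebellar Purkinje cells, had 2 wide shared loci, of 1199 and 1099 bp at places 628 and 676, and of 799 and 899 bp at places 471 and 475. Another site, of 249 bp, was in the increased list only and lacked the consensus. The shared loci lie in the annotated gene, 36.2 and 35.0 kb upstream of the canonical start, and inside CCDC105. The match is the same run of 21 bases at both, 1400 bp apart, and it occurs 2 times in hg19, whereas the bases around it, aligned without gaps, were alike at 33.5% of 415 positions.

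Widths of the loci shared between dosages differed in both directions. Of the 34, 12 were wider in the basal list, 14 in the increased list and 8 had equal widths, with a median difference of 0 bp. Where all sites of a locus were added up, 14 covered more bases in the basal list and 12 in the increased list. Among the loci with unequal widest sites were those of GRIN1 in intron 3 (1049 and 449 bp), GRIN3A over exon 1 (1049 and 1499 bp) and GRIN2A in intron 7 (1199 and 899 bp). The first 2 were split into 2 sites in 1 list. At GRIN1 the 2 sites of the increased list together covered 748 bp. At GRIN3A the 2 basal sites covered 1598 bp, more than the 1499 bp of the increased list. In all, 5 shared loci were split in this way. The consensus went with width: shared loci with it had median widths of 949 and 899 bp and median places of 496 and 511, and those without had 349 and 399 bp and places of 2832 and 2611. The ranges overlapped, since GRM2 and GRIK5 had wide sites without the consensus and GRIN3A a narrow one with it. A wider locus also has more positions at which a match can lie, and this was not separated from the association. Sites of 1 list only all stood in the later part of the list, from place 3083 (basal) and 2754 (increased) on.

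**Figure D2:**
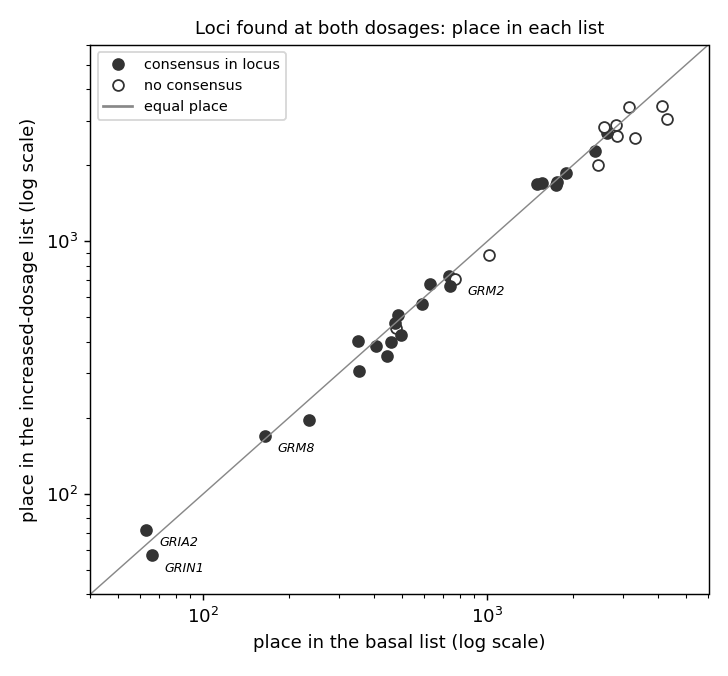
Place in the basal list (horizontal) against place in the increased-dosage list (vertical), both on log scales, for the 34 shared loci, filled where the locus holds the consensus; the line marks equal places. The points lie near the line, from GRIA2 (63 and 72) and GRIN1 (66 and 57) to the rightmost point, GRIN2B (4293 and 3049).

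Relative to the canonical transcripts, 9 of the 34 shared loci lay in a first intron, 16 in a later intron and 5 within 1 kb of the start (GRIA2, GRIN1, GRIN2A, GRM2 and SLC17A6), and the other 4 were at an exon of GRIN3A, upstream of SLC1A6 (2) and downstream of GRIK5. Sites in first introns made up 25.5% (15.5 to 38.9) of the 51 basal sites of the listed genes. For other protein-coding genes the place shares are over pairs of a site and a gene, so that a site near several genes counts repeatedly. First introns made up 13.3% (12.2 to 14.4) of the 3778 basal pairs. In the increased list the shares were 26.1% (15.6 to 40.3) of 46 sites against 13.3% of 3634 pairs. Listed and other genes were thus counted differently. First introns take 13.2% of the searched stretch of the listed genes and 15.5% of that of the other genes. Later introns also had higher shares, 47.1% (34.1 to 60.5) against 34.5% of pairs (basal) and 47.8% (34.1 to 61.9) against 33.8% (increased). Shares farther upstream were lower, 7.84% against 19.6% (basal) and 6.52% against 19.1% (increased). Downstream they were 3.92% against 15.3% and 4.35% against 15.4%. A preference for first introns over later ones was not tested. The share within 1 kb of the start was 15.7% (8.17 to 28.0) of listed sites against 12.8% of pairs in the basal list. In the increased list it was 10.9% (4.73 to 23) against 13.4% of pairs, and both intervals include the value of the other genes. For 7 of the 34 shared loci the nearest start of a protein-coding gene was that of another gene.

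**Figure D3:**
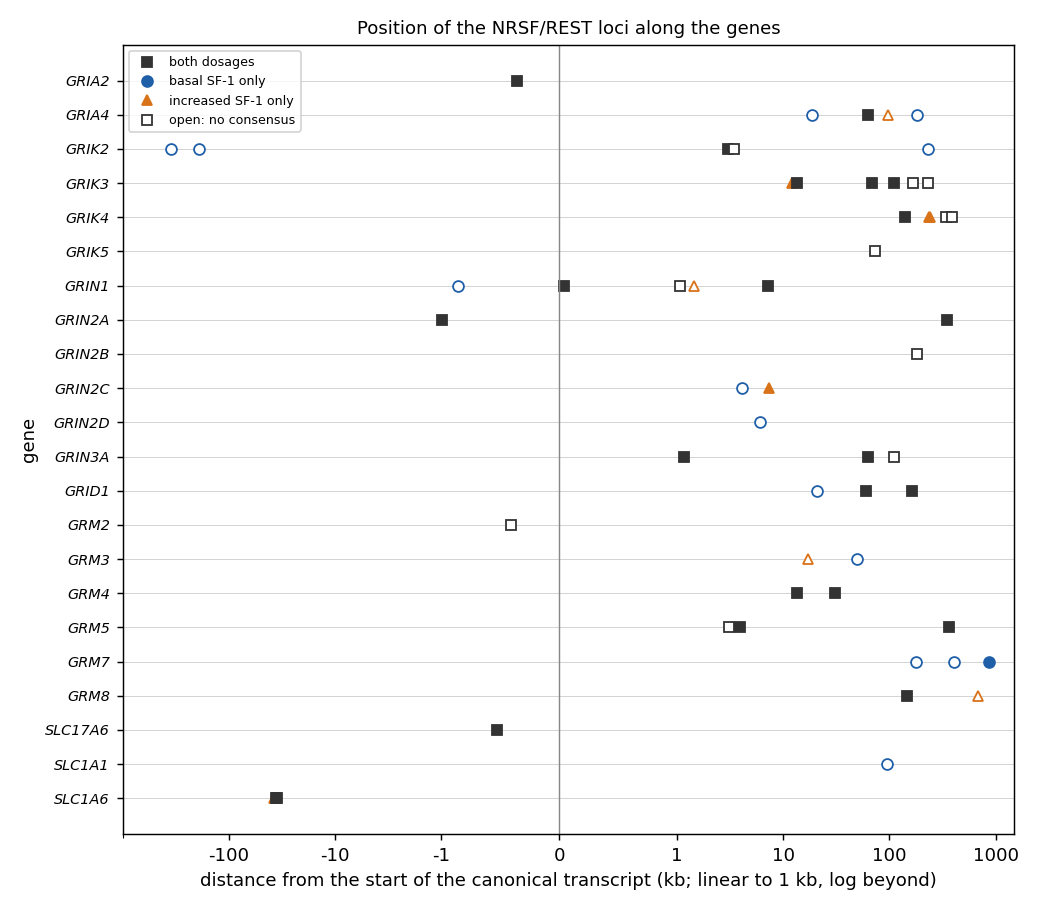
Distance in kb of each locus from the start of the canonical transcript (linear to 1 kb, log scale beyond), by gene, with squares for loci found at both dosages, circles for the basal and triangles for the increased list only, and open symbols for loci without the consensus. Loci at both dosages range from 36.2 kb upstream (SLC1A6) to 389 kb downstream (GRIK4), and 5 lie within 1 kb.

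Since the listed genes are long, with a median of 169 kb against 27.1 kb for the other protein-coding genes, they were compared by length class. Of the listed genes over 300 kb, 8 of 12 had a shared site, against 38.9% of other genes of that length. Between 100 and 300 kb this was 4 of 6 genes against 16.5%, and between 30 and 100 kb 4 of 9 against 8.41%. In the shorter classes 1 of 4 genes of 10 to 30 kb had a shared site, where the other genes had 7.21%, and the 1 listed gene under 10 kb had none, where the others had 6.17%. With the shares of the other genes in each class, 6.76 of 32 genes would have a shared site, and 17 did. For any basal site this count was 9.44 against 22, for any increased-list site 9.11 against 19, for a shared site with the consensus 4.69 against 14, and for genes with sites of 1 list only 4.35 against 5.

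**Figure D4:**
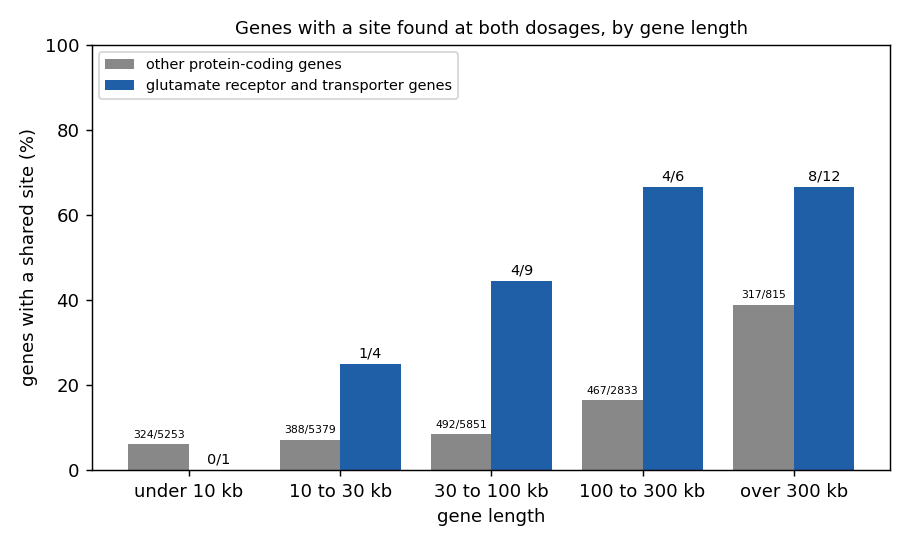
Share in percent of genes with a basal site that overlaps an increased-list site, by gene length, for the listed genes (blue) and the other protein-coding genes (grey), with the number of genes above each bar. The listed genes stand higher in the 4 classes above 10 kb, with 8 of 12 against 38.9% over 300 kb; the class below holds 1 listed gene.

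At least 3 shared basal sites were present at 5 listed genes, GRIK3 with 5, GRIN1 and GRIN3A with 4, and GRIK4 and GRM5 with 3, against 0.660% of all protein-coding genes (133 of 20163). This comparison takes no account of gene length, and apart from GRIN1 (30.4 kb) these genes span 169 to 561 kb. The 4 sites of GRIN1 and those of GRIN3A formed 3 loci in each gene. Only 8 protein-coding genes had more shared basal sites than GRIK3. Per Mb of gene and window, the listed genes held 5.37 basal, 4.84 increased and 3.90 shared basal sites, where the other genes held 2.14, 2.06 and 1.45. In genes over 300 kb the shared density was 2.05 against 1.23 per Mb, and in those of 30 to 100 kb 11.9 against 1.32.

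As sites, those of the listed genes were shared in 72.5% (59.1 to 82.9) of the basal and 80.4% (66.8 to 89.3) of the increased list, against 64.4% and 67.8% of the rest of each list. For the basal list the interval includes the value of the rest, and for the increased list it just does. Sites at other protein-coding genes were shared in 67.2% and 69.9%, and these values also lie inside the intervals. The consensus was present in 49.0% (35.9 to 62.3) and 56.5% (42.2 to 69.8), against 40.6% and 42.0% of the rest, where the basal interval includes and the increased interval just excludes the value of the rest. Of the sites at other protein-coding genes 44.6% and 45.7% held it, and both values lie inside the intervals. As a local background, stretches as wide as each listed site and 10 kb away on both sides held it in 4.90% (5 of 102) and 6.52% (6 of 92). A match without mismatch was present in 21.6% (12.5 to 34.6) and 23.9% (13.9 to 37.9) against 11.1% and 11.7% of the rest and 13.6% and 14.3% of the sites at other protein-coding genes, the last pair inside the intervals, and no window had one. The first 10% of the list order held 25.5% (13 of 51) and 26.1% (12 of 46) of the listed sites and 9.84% and 9.83% of the others. Of the sites at other protein-coding genes it held 12.3% and 12.2%.

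**Figure D5:**
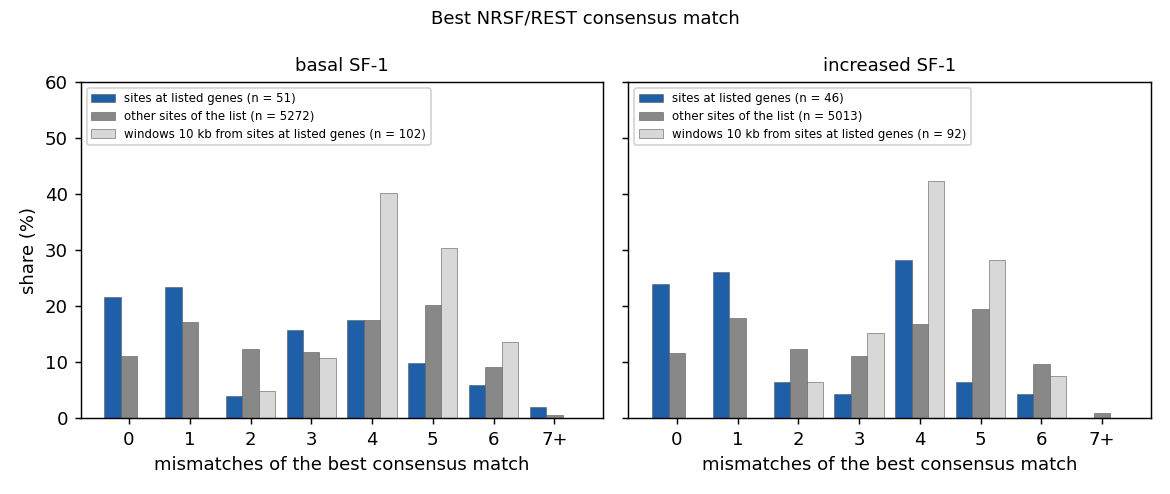
Share in percent of sites by the mismatches of their best match to the 13 fixed bases of the consensus, for the sites at the listed genes (blue), all other sites of the list (grey) and windows 10 kb away (light), basal list left and increased list right. Matches without mismatch are found in 21.6% and 23.9% of the listed sites and in none of the windows.

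In sites without the consensus its parts were also sought 0 to 20 bases apart, other than 2, with at most 1 mismatch in each part. Such an arrangement was present in 6 of 26 basal sites, 23.1% (11.0 to 42.1), and 7 of 20 increased-list sites, 35.0% (18.1 to 56.7), of the listed genes, where the rest of the lists had 24.8% and 24.1% and the windows at the listed genes 7.69% and 12.5%. Besides GRM2, the shared loci with such parts were those of GRIN3A in intron 4 (8 bases apart, 1 mismatch), GRIK5 (5 bases, 1 mismatch) and GRM5 at 3.08 kb (18 bases, 2 mismatches). The intervals of these shares include the values of the rest of the lists.

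Other genes around the glutamate synapse were counted by the same rule. Of 10 enzymes and carriers of glutamate, among them GLUL, which turns glutamate into glutamine, and GLUD1, which breaks it down, none had a site in either list, where 13.9% and 13.6% of all protein-coding genes had one, so that 0 of 10 is near the background. Of 4 auxiliary subunits, NETO1 and CNIH2 had a shared site, and that of NETO1, which associates with kainate receptors, held the consensus. Among 20 scaffold and signalling proteins of the postsynaptic density 10 had a shared site and 8 a shared site with the consensus, against 9.94% and 6.55% of all protein-coding genes. They were DLG2, DLG4, DLGAP1, DLGAP2, DLGAP3, DLGAP4, SHANK1, SHANK2, GRIP1 and CAMK2A, with DLG2 and GRIP1 lacking the consensus. Of these DLG2 (2173 kb), DLGAP2 (969 kb), DLGAP1 (959 kb), GRIP1 (722 kb) and SHANK2 (650 kb) belong to the length class over 300 kb, in which 38.9% of genes outside the receptor and transporter list had a shared site. The widest basal site in this group, 1049 bp, was at DLGAP3.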

How the data were processed

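Chromatin of H295R/TR SF-1 cells was immunoprecipitated with an NRSF/REST antibody in 1 library per SF-1 dosage. Reads were aligned by the authors using ELAND on hg19, and the submitters' processing notes name CASAVA 1.6. The authors deposited called sites for each library; the track lines name a CisGenome peak file, and the settings for NRSF/REST are not given in the sources used here. The deposited score is 1000 for every site, and the other deposited number is the place in the list. Depth is unknown.

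Site starts were converted to a count from 1. Genes were the 64449 genes of GENCODE release 44 on hg19 (20163 protein-coding, of which 282 had no canonical transcript and were left out of positions). Overlaps, consensus matches, windows and Wilson intervals were computed with pysam 0.24.0, scipy 1.17.1 and numpy 2.4.6 under Python 3.11.15 and drawn with matplotlib 3.10.9; steps were tested on simulated data. All 32 genes and every shared locus are named, and sequences were printed for shared loci with at most 2 mismatches. The members, lists and comparisons were chosen with earlier results of these data known. Alternatives covered the window, the overlap, the mismatches, the width, the list order and the length classes. Of the list of other pathway genes, 1 is not reported here. The input DNA libraries were not used, and no test was made.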

Additional observations from a re-analysis of the deposited data

How the results depend on the processing

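Of 58 alternatives to 13 results, 43 stayed within 1.5 times a count or within the 95% interval of a share, and 15 did not. Keeping the widest 50% of each list left 32 basal and 29 increased-list sites at the listed genes, and the first 50% in list order, chosen after seeing the data, left 28 and 26, which follows from dropping sites. The shared percentage was 54.9 (basal) and 60.9 (increased) with midpoints within 100 bp, 96.9 and 100 in the widest 50%, and 100 and 100 in the first 50% in list order. The consensus percentage was 21.6 and 23.9 with 0 mismatches, 64.7 with at most 3 mismatches in the basal list, and 75 and 75.9 in the widest 50%. Without sites inside another protein-coding gene, also chosen after seeing the data, 19 and 17 listed genes had a site. The length-weighted counts of genes stayed below the counts of the list under each class scheme and annotation tried, from 4.89 to 6.76 against 17 for shared sites, and 6.08 against 15 for the gene alone. No paired analysis was possible because there is 1 library at each dosage, and no replicate could be left out. Site lists without read counts give no limit on what a lower threshold would call at the genes without a site.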
